A study of Mus musculus with 8 samples.

Results

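The genes described here encode the nuclear subunits of respiratory complexes I to IV in cardiomyocytes of embryonic mouse hearts cultured on a soft or a stiff silicone. Members were the rows of the deposited coding-gene count table whose symbol belongs to the Nduf a, b, c, s or v series, begins with Uqcr or with Cox4 to Cox8, or is Sdha, Sdhb, Sdhc or Sdhd. Pseudogenes were left out, and a member needed at least 10 counts in at least 4 of the 8 libraries. Of 29844 genes in the table, 69 matched the symbols and 65 were members, with 34 in complex I, 4 in complex II, 8 in complex III and 19 in complex IV. Ndufa4 and Ndufa4l2 were placed in complex IV despite their names, since NDUFA4 is now regarded as a subunit of that complex. The 4 rows that matched but were not members were the pseudogene Uqcrh-ps1, Cox7b2 with few counts, and Cox8c and Ndufa13, both listed at 0 in all 8 libraries. Ndufa13 is a known complex I subunit, and no value is given for it here. The symbol rule also leaves out the subunits Cyc1 and Ndufab1, which are described with the other genes of the pathway.

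All cells carried the same transgene, a histone H2B fused to enhanced green fluorescent protein (the B6.Cg-Tg(HIST1H2BB/EGFP)1Pa/J line), and were labelled as embryonic cardiomyocytes from E18.5 hearts. They were kept for 4 days in medium with 10% fetal bovine serum on polydimethylsiloxane, a silicone rubber, of about 10 kPa (soft) or about 150 kPa (stiff), with 4 libraries of total RNA on each. Nothing in the labels tells if the libraries on a given silicone were made from different cultures or litters. The p-values then measure only how far these libraries differ, a spread that may be technical. The library codes in the labels also differ in their prefix between soft and stiff, and what a prefix stands for is not given in the sources used here, so a difference in handling between code series and the substrate cannot be told apart. The libraries are called soft 1 to soft 4 and stiff 1 to stiff 4 below, and the numbers are only names.

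The respiratory chain sits in the inner mitochondrial membrane. Complex I (NADH dehydrogenase) and complex II (succinate dehydrogenase) pass electrons to ubiquinone, complex III (the cytochrome bc1 complex) passes them on to cytochrome c, and complex IV (cytochrome c oxidase) reduces oxygen, and the proton gradient built along the way drives ATP synthase. The heart depends on this chain for most of its ATP, and some complex IV subunits have a form typical of heart and skeletal muscle beside a form found in most tissues. Some subunits of complexes I, III and IV, and of ATP synthase, are encoded by mitochondrial DNA, and the 13 protein genes of the mitochondrial genome were not in the table used here, so the values cover nuclear genes only.

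The libraries held 27646471 to 34693673 counts over coding genes. Levels are given as CPM, counts scaled to a common library size with edgeR's TMM factors, and are not divided by transcript length, so levels of different genes are not compared. Soft 4 stood apart from the other soft libraries. The sum of 17 cardiomyocyte markers was 41324 CPM in soft 4 and 22248 to 23947 CPM in soft 1 to soft 3, and in the stiff libraries it was 35273 CPM in stiff 4 and 21957 to 26648 CPM in the others. The labelled cell type was therefore present in every library, with Tnnt2, the cardiac troponin T, at 2076 to 4026 CPM, but so were markers of other heart cells. The 10 fibroblast markers summed to 8540 to 15015 CPM on soft and 7828 to 12411 CPM on stiff, the 10 smooth muscle and pericyte markers to 2395 to 3911 and 2225 to 3352 CPM, the 8 epicardial and mesothelial markers to 796 to 1128 and 752 to 888 CPM, the 8 endothelial markers to 180 to 274 and 200 to 322 CPM, and the 8 leukocyte markers to 111 to 183 and 112 to 164 CPM. Some of these sums rested on few genes. On average over the 8 libraries, the highest cardiomyocyte markers were Actc1, Ttn and Myh6 at 5635, 5434 and 3902 CPM. The next, Tnnt2, was at 2659 CPM. The highest fibroblast markers were Col1a2, Col3a1 and Col1a1 at 4407, 2611 and 1918 CPM, followed by Postn at 1454 CPM. Acta2 and Tagln were at 1571 and 839 CPM. The next smooth muscle or pericyte marker, Cnn1, was at 177 CPM, and Myh11 was at 10.1 CPM. Of the leukocyte markers, Lyz2 was at 95.8 CPM and the next, Csf1r, at 10.9 CPM. All 7 erythroid markers were listed at 0. Of 8 skeletal muscle markers, Myod1, Myf5, Pax7 and Myf6 were at 0 in every library, and Myog was at 0 to 0.64 CPM. Ckm, Acta1 and Tnnt3, which embryonic heart muscle also expresses, made up most of the list's sum. This sum was 94.5, 97.3, 185 and 632 CPM in soft 1 to soft 4. In stiff 1 to stiff 4 it was 125, 126, 210 and 261 CPM. In such bulk RNA, fewer cells of a type and less RNA per cell cannot be told apart.

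The question the design poses is whether substrate stiffness was accompanied by a different level of respiratory subunit transcripts, and no member passed the test. The 65 members together took 0.5996%, 0.505%, 0.603% and 0.766% of the coding counts in soft 1 to soft 4 and 0.614%, 0.595%, 0.632% and 0.565% in stiff 1 to stiff 4. The groups overlapped, and both the lowest and the highest share belonged to soft libraries. The summed level was 6195 ± 1105 CPM on soft and 6004 ± 192 CPM on stiff (mean ± SD, n = 4 each, as for all such values below). With edgeR's quasi-likelihood test, fitted over 14059 genes and adjusted by Benjamini-Hochberg, 0 genes had an adjusted p under 0.05 (0% of those tested), and accordingly 0 of the 65 members, all of which entered the fit. Taking instead all genes whose unadjusted p was under 0.05 gave 130 genes (0.925%), and again 0 members. The lowest adjusted p over the members was 0.99997. DESeq2 and limma-voom called 0 genes as well, and limma-voom with libraries of the same number as a block called 8 genes (0.0569%), of which 0 were members.

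Estimates for the members lay on both sides of 0. The log2 fold change of stiff over soft was above 0 for 25 members and below 0 for 40, with a median of -0.05 and a range from -0.57 for Uqcrq to 0.40 for Ndufb3. Over all genes tested the median was -0.01, and 51.9% of genes were below 0. By complex, 13 of 34 estimates were above 0 in complex I (median -0.08), 2 of 4 in complex II (0.01), 2 of 8 in complex III (-0.15) and 8 of 19 in complex IV (-0.02). The unadjusted 95% interval of a member reached a median of 1.37-fold to either side of its estimate (1.26-fold to 3.25-fold), against 1.51-fold over all genes. This reach is not a detection limit, since the adjusted test was stricter, and larger differences may also have gone undetected. The signs depended on soft 4. Without it, 42 estimates were above 0 and 23 below, with medians of 0.10, 0.19, 0.03 and 0.06 for complexes I, II, III and IV and of 0.00 over all genes. Without both libraries numbered 4, a setting chosen after seeing the data, the count was 49 above 0 and 16 below. Over all genes in that fit 50.4% were below 0, and still 0 members were called.

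**Figure D1:**
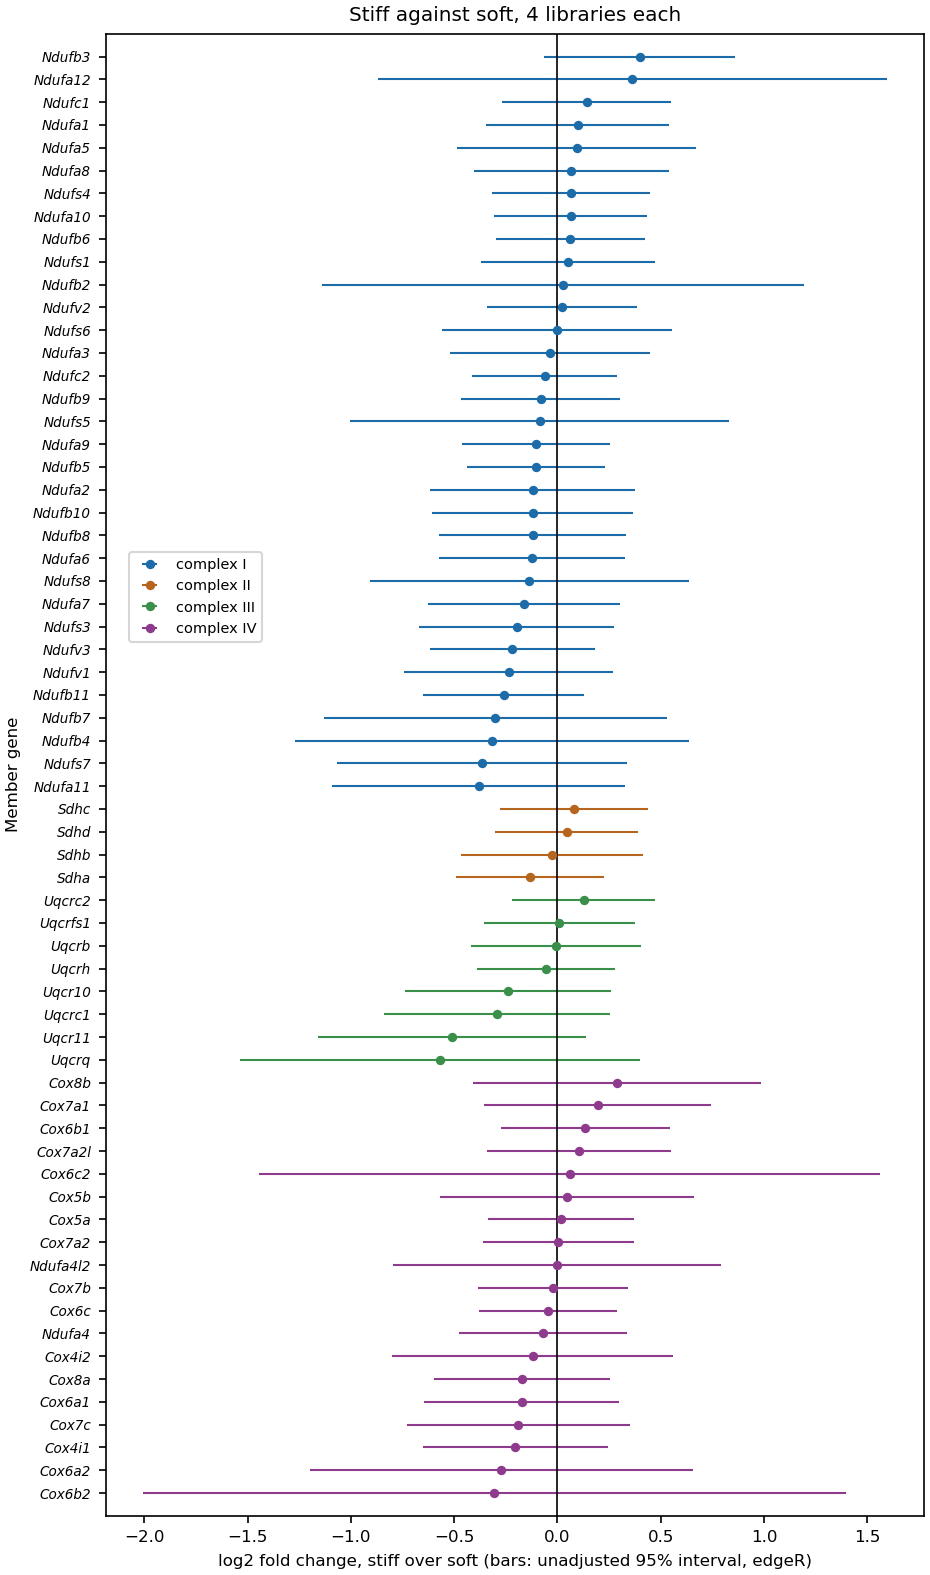
Each point is a member's log2 fold change of stiff over soft (4 libraries each), coloured by complex, with its unadjusted 95% interval from edgeR as a bar; the vertical line marks no difference. Every interval crosses 0, and the estimates run from -0.57 for Uqcrq to 0.40 for Ndufb3.

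**Figure D2:**
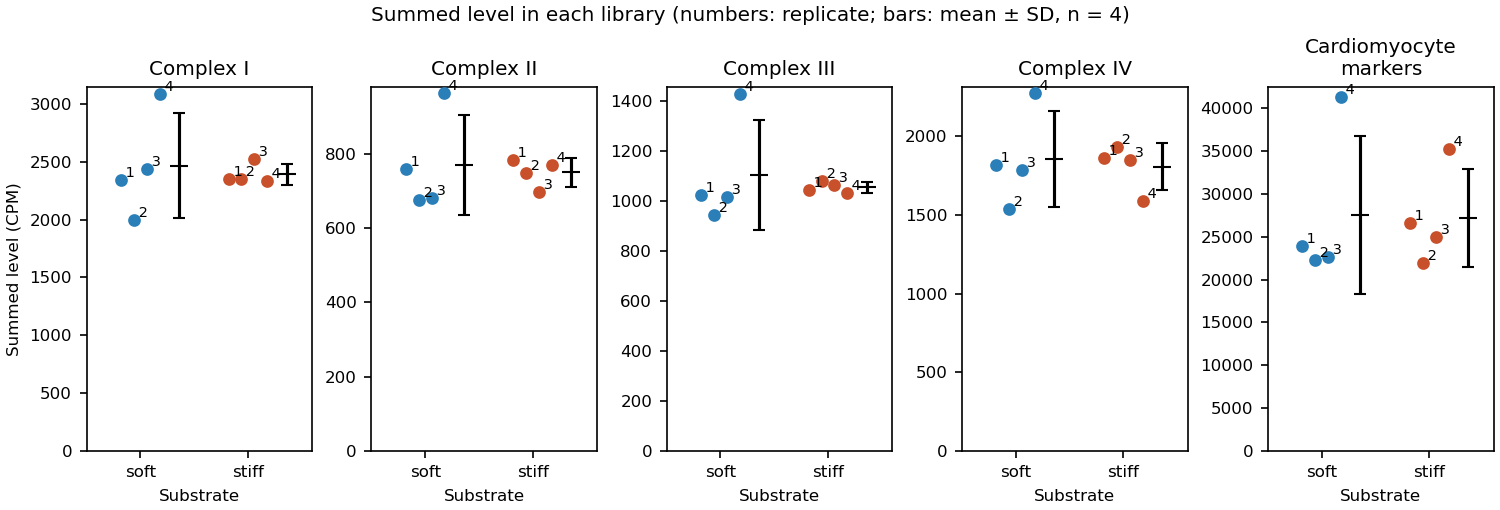
Summed CPM of the members of each complex, and of 17 cardiomyocyte markers, in each library (points, numbered by replicate), with mean ± SD beside them (n = 4); each axis starts at 0. Soft 4 is the highest library in all 5 panels, and the other soft libraries lie among or below the stiff ones in complexes I and III.

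Complex I oxidises NADH in an arm that projects into the matrix and pumps protons through an arm in the membrane. Its summed level was 2343, 1996, 2440 and 3091 CPM in soft 1 to soft 4 and 2355, 2349, 2529 and 2331 CPM in stiff 1 to stiff 4. The stiff libraries lay inside the range of the soft ones, and the means were 2467 ± 457 and 2391 ± 92.2 CPM. The 7 nuclear core subunits, which carry the flavin and the iron-sulfur clusters, had 3 estimates above 0 and 4 below (median -0.14), and the 27 accessory subunits, which surround that core, had 10 above and 17 below (median -0.08).

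Ndufs1, the largest core subunit and a carrier of iron-sulfur clusters (chromosome 1, 63143592 to 63176822, GRCm38), stood at 264, 192, 213 and 305 CPM on soft and 202, 208, 275 and 324 CPM on stiff. Soft 4 and stiff 4 were its highest libraries of their groups, the groups overlapped, and the log2 fold change was 0.05 (SE 0.20). Ndufv1, which binds the flavin where NADH is oxidised (chromosome 19, 4007499 to 4012755), was at 115, 87.0, 110 and 219 CPM on soft and 126, 101, 109 and 116 CPM on stiff. Soft 4 lay far above the other libraries, which overlapped, and the log2 fold change of -0.24 (SE 0.24) became 0.12 without soft 4. Ndufv2, the iron-sulfur partner of Ndufv1, was within 89.9 to 133 CPM on soft and 103 to 126 CPM on stiff, at a log2 fold change of 0.02.

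Ndufs7 and Ndufs8 carry the iron-sulfur clusters nearest to ubiquinone. Ndufs7 (chromosome 10, 80249105 to 80256794) stood at 22.1, 11.05, 27.9 and 39.5 CPM on soft and 22.1, 13.6, 22.5 and 19.98 CPM on stiff, a log2 fold change of -0.36 (SE 0.33) that was -0.05 without soft 4 and -0.61 without soft 2. Ndufs8 (chromosome 19, 3908863 to 3912774) stood at 22.5, 12.2, 34.3 and 58.2 CPM on soft and 26.1, 27.0, 33.7 and 28.8 CPM on stiff, a log2 fold change of -0.14 (SE 0.36) that became 0.34 without soft 4. For both genes soft 2 was the lowest and soft 4 the highest of the 8 libraries, so that the stiff libraries fell between them. Ndufs3, which helps to link the ubiquinone site to the NADH arm, had a log2 fold change of -0.20. Soft 2 was the lowest library for 6 of the 7 core subunits, and soft 4 the highest for 5.

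Among the accessory subunits, Ndufb3 of the membrane arm (chromosome 1, 58586397 to 58595964) had the lowest p-value of all members. It stood at 29.8, 25.2, 37.8 and 39.6 CPM on soft and 38.3, 43.1, 52.3 and 40.7 CPM on stiff. The groups overlapped only through stiff 1, which was below soft 4. Means were 33.1 ± 6.74 and 43.6 ± 6.11 CPM, and the log2 fold change was 0.40 (SE 0.22; edgeR unadjusted p = 0.0857, adjusted p = 0.99997), from 0.29 to 0.50 when each library was left out in turn.

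Ndufb11, an X-linked subunit of the membrane arm (chromosome X, 20615326 to 20617619), was the only member whose groups did not overlap, as was the case for 181 genes (1.29%) of all tested. It stood at 60.9, 62.7, 69.0 and 91.7 CPM on soft and 58.2, 60.6, 58.6 and 59.9 CPM on stiff. The gap between soft 1 and stiff 2 was small beside the spread on soft, and the log2 fold change was -0.26 (SE 0.18; edgeR unadjusted p = 0.174) and -0.11 without soft 4. Its annotated span overlaps that of Rbm10. Ndufv3, an accessory subunit at the NADH end, had a log2 fold change of -0.22, with 73.8 to 116 CPM on soft and 67.6 to 94.9 CPM on stiff. Ndufb2, a membrane-arm subunit with few counts here, had 0.03, with 2.88 to 5.43 CPM on soft and 1.92 to 5.49 CPM on stiff.

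Several other accessory subunits, chosen after their values were seen, varied more between libraries than between substrates. Ndufa11, which links the membrane arm to the rest of the complex, stood at 31.2, 19.4, 42.1 and 78.7 CPM on soft and 32.5, 27.2, 36.5 and 35.4 CPM on stiff. Ndufb7, a subunit on the intermembrane side, had 20.4, 12.6, 28.7 and 52.1 CPM on soft and 23.6, 12.3, 30.8 and 25.7 CPM on stiff. In both, soft 4 was the highest library and the other libraries of the groups were interleaved. Ndufa12 had the widest spread of all members, a coefficient of variation of 66.2% over the 8 libraries, with 7.93, 9.64, 4.13 and 25.4 CPM on soft and 16.5, 12.2, 4.56 and 27.3 CPM on stiff. Its libraries numbered 4 were the highest and those numbered 3 the lowest on both substrates. At the other end, Ndufb5 stayed within 96.1 to 121 CPM and Ndufc2 within 67.1 to 85.9 CPM over all 8 libraries.

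Complex II is the succinate dehydrogenase of the citric acid cycle and has only nuclear subunits. Its summed level was 760, 675, 681 and 964 CPM in soft 1 to soft 4 and 785, 749, 698 and 770 CPM in stiff 1 to stiff 4. Soft 4 was the highest library for all 4 subunits, and the stiff libraries lay within the soft range. Sdha, the flavoprotein that oxidises succinate (chromosome 13, 74322255 to 74350240), stood at 366, 328, 292 and 417 CPM on soft and 337, 319, 272 and 351 CPM on stiff, a log2 fold change of -0.13 (SE 0.17) that was -0.03 without soft 4 and -0.21 without soft 3. The groups overlapped, and the libraries numbered 3 were the lowest of each.

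Sdhb, the iron-sulfur subunit (chromosome 4, 140961271 to 140979198), stood at 102, 80.4, 101 and 169 CPM on soft and 118, 98.8, 118 and 110 CPM on stiff. Soft 4 was high and the log2 fold change was -0.02 (SE 0.21), and 0.24 without soft 4. The membrane anchors Sdhc and Sdhd, which hold the ubiquinone site, had log2 fold changes of 0.08 and 0.04. Sdhc was at 130, 128, 126 and 176 CPM on soft and 165, 152, 133 and 142 CPM on stiff. Every stiff library exceeded soft 1 to soft 3 for Sdhc and was below soft 4, so the groups overlapped through that library alone.

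Complex III takes electrons from ubiquinol, and it had the lowest median estimate of the complexes, with 6 of 8 below 0. Its summed level was 1024, 943, 1017 and 1429 CPM in soft 1 to soft 4 and 1045, 1080, 1066 and 1033 CPM in stiff 1 to stiff 4. Every stiff library was above soft 1 to soft 3 and below soft 4, and the means were 1103 ± 220 and 1056 ± 21.3 CPM.

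The small subunits Uqcr11 and Uqcrq had the lowest estimates of all members. Uqcr11 (chromosome 10, 80402997 to 80406821) stood at 26.6, 26.2, 48.2 and 73.2 CPM on soft and 36.03, 23.6, 35.1 and 27.5 CPM on stiff. Soft 3 and soft 4 lay above every stiff library, and soft 1 and soft 2 among them. The log2 fold change was -0.51 (SE 0.31; edgeR unadjusted p = 0.115), and -0.13 without soft 4. Uqcrq, which lies next to cytochrome b (chromosome 11, 53427922 to 53430831, overlapping the span of Gdf9), stood at 23.0, 12.6, 33.5 and 56.5 CPM on soft and 12.6, 11.8, 35.7 and 24.5 CPM on stiff. The groups overlapped, the log2 fold change was -0.57 (SE 0.45), and it was -0.11 without soft 4. Uqcrq had an unadjusted p under 0.05 with same-numbered libraries as a block in edgeR and in limma-voom, and Uqcr11 with that block in limma-voom and without soft 1 or soft 2. Over all genes, the unadjusted p was under 0.05 for 360 of 14059 with the block in edgeR and 432 of 14059 in limma-voom. Without soft 1 it was so for 166 of 14359 genes, and without soft 2 for 272 of 14405. Neither Uqcrq nor Uqcr11 was called in any fit.

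The core proteins Uqcrc1 and Uqcrc2, which form the matrix-facing base of the complex, had estimates on opposite sides of 0. Uqcrc1 (chromosome 9, 108936648 to 108949641) stood at 155, 108, 178 and 310 CPM on soft and 172, 127, 156 and 160 CPM on stiff, a log2 fold change of -0.29 (SE 0.26) that was 0.07 without soft 4. Uqcrc2 (chromosome 7, 120635189 to 120659523) stood at 339, 318, 256 and 369 CPM on soft and 351, 376, 327 and 347 CPM on stiff, a log2 fold change of 0.13 (SE 0.16). Soft 4 was far above the next library for Uqcrc1 and within the range of the others for Uqcrc2. Uqcrfs1, the Rieske iron-sulfur protein that hands electrons to cytochrome c1, had a log2 fold change of 0.01, and Uqcrh, the hinge protein near cytochrome c1, stayed within 171 to 226 CPM over all libraries. Uqcr10, another small subunit, was at 53.6 to 127 CPM on soft and 57.6 to 87.2 CPM on stiff.

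Complex IV passes electrons from cytochrome c to oxygen through a core encoded by mitochondrial DNA, which nuclear subunits surround. The 19 members counted with it include alternative forms of the same subunit, such as Cox4i1 and Cox4i2, so they are not 19 parts of 1 enzyme. Their summed level was 1816, 1539, 1787 and 2274 CPM in soft 1 to soft 4 and 1861, 1932, 1847 and 1589 CPM in stiff 1 to stiff 4. The means were 1854 ± 306 and 1807 ± 150 CPM. Stiff 4 was the lowest stiff library here, and its cardiomyocyte markers were the highest on stiff. A relation between these levels was not tested. Cox4i1, the general form of the regulatory subunit 4 (chromosome 8, 120668225 to 120674209), stood at 272, 191, 294 and 435 CPM on soft and 269, 257, 276 and 233 CPM on stiff. The soft libraries spread on both sides of the stiff ones, and the log2 fold change was -0.20 (SE 0.21), and 0.04 without soft 4.

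Cox5a and Cox5b, which flank the core on the matrix side, had log2 fold changes of 0.02 and 0.05. Cox5b was at 17.9, 18.1, 16.5 and 31.4 CPM on soft and 27.2, 24.2, 14.1 and 21.1 CPM on stiff, with soft 4 the highest and stiff 3 the lowest library. Cox6c, a small membrane subunit, was the steadiest member, with a coefficient of variation of 8.17% and levels of 129 to 164 CPM. Cox6c2, a compact gene closely related to Cox6c (chromosome 12, 56373458 to 56373872), had 1.85 to 4.61 CPM. Whether reads of Cox6c were counted for it was not tested, so its level is uncertain. Cox6b2, the testis form of subunit 6b, was chosen after its values were seen. Its counts were 174, 185, 214 and 21 in soft 1 to soft 4 and 179, 105, 215 and 10 in stiff 1 to stiff 4. It was low in both libraries numbered 4 and did not differ between substrates beyond that spread.

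Ndufa4 and its paralog Ndufa4l2, a gene known for its induction by low oxygen, were also followed as a pair. Ndufa4 was at 173, 131, 172 and 225 CPM on soft and 131, 157, 190 and 189 CPM on stiff. Soft 4 was its highest library, and the log2 fold change was -0.07. Ndufa4l2 stood at 16.3, 28.1, 54.2 and 52.7 CPM on soft and 42.6, 50, 39.2 and 19.3 CPM on stiff. Its lowest libraries were soft 1 and stiff 4, the groups overlapped almost fully, and the log2 fold change was 0.00 with an SE of 0.37. Its annotated span overlaps that of Shmt2.

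**Figure D3:**
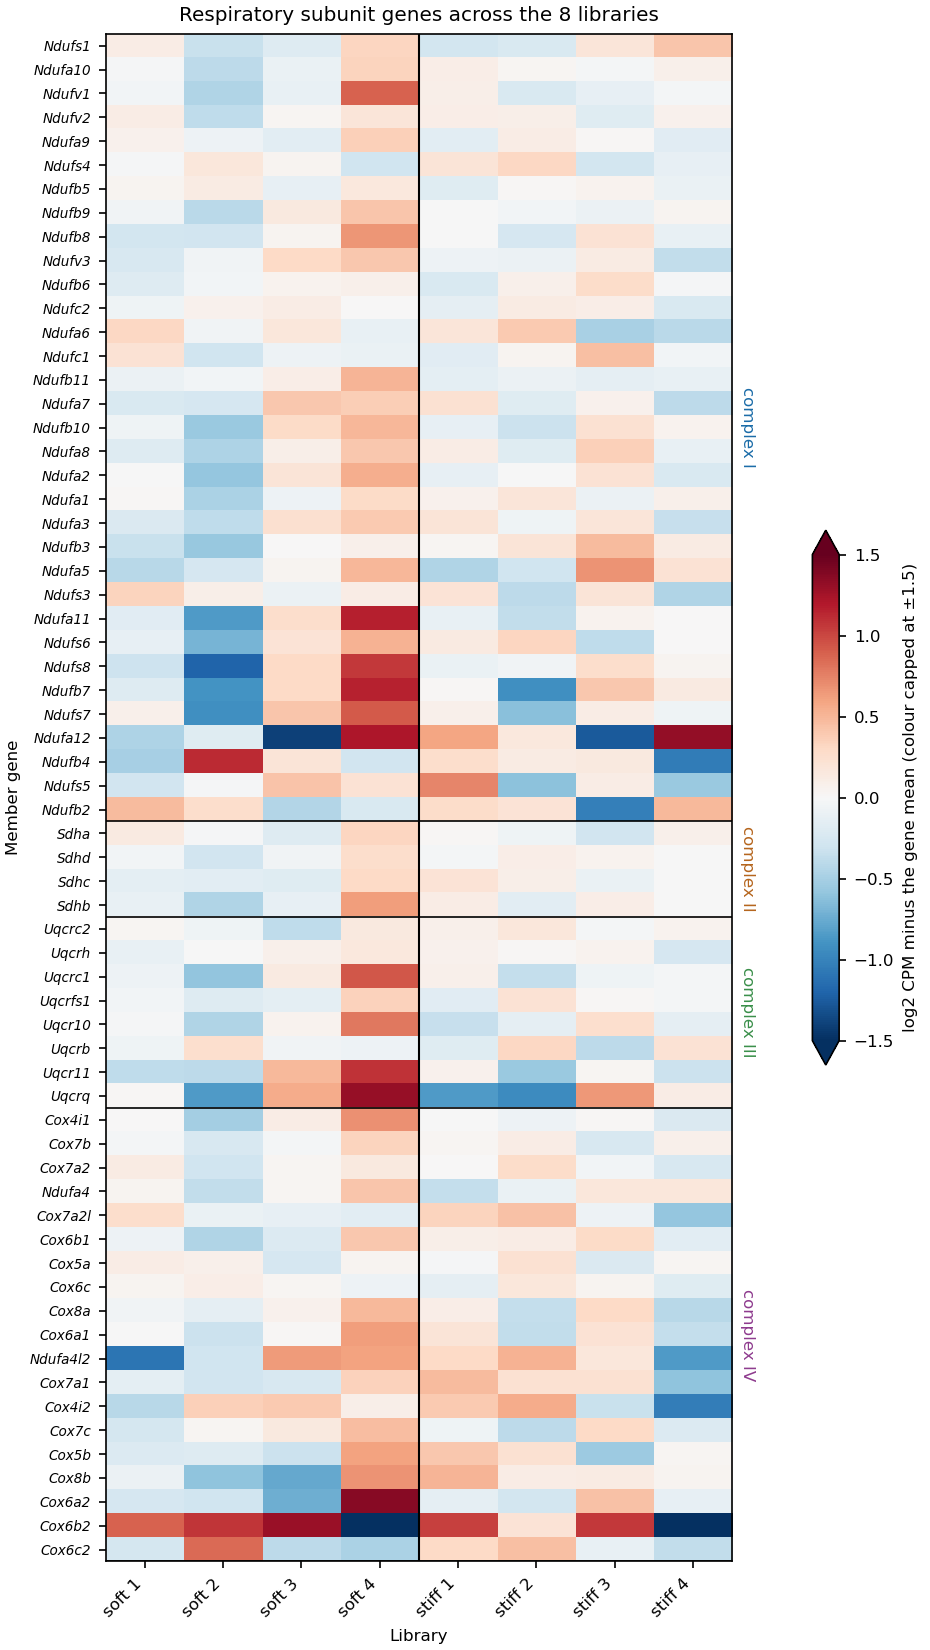
Each row is a member, grouped by complex and ordered by mean level, and each column a library; colour gives the deviation of log2 CPM from that member's average in these libraries, with the colour scale capped as marked. The column of soft 4 is red for most rows and that of soft 2 blue for many, while the soft and stiff columns show no shared shift.

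Several subunits of complex IV have a form enriched in heart and skeletal muscle (Cox6a2, Cox7a1, Cox8b) and a form found more widely (Cox6a1, Cox7a2, Cox8a), and the muscle forms are known to gain on the others as the heart matures. The stretches of 150 bases upstream of the annotated start of these genes are shown for those in the promoter table. Whether these stretches regulate the isoform pairs compared next was not tested. They are from RefSeq (GRCm38.p6), read 5′ to 3′ on the gene's strand, with capitals for matches to the motifs searched.
Cox6a1, chr5:115348959-115349108, minus strand: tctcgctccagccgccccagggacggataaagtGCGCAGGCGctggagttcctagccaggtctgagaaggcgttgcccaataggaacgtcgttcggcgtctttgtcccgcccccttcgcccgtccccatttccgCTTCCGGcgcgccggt
Cox7a1, chr7:30184021-30184170, plus strand: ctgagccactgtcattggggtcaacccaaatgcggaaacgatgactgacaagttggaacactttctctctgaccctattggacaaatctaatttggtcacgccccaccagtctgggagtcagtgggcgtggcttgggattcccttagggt
Cox7a2, chr9:79759854-79760003, minus strand: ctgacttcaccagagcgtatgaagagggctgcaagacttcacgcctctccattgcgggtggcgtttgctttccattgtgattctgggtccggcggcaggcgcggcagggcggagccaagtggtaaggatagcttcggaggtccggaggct
Cox8b, chr7:140900447-140900596, minus strand: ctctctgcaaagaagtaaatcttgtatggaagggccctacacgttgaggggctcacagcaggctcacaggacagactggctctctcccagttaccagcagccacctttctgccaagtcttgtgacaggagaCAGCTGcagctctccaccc
Cox8a, chr19:7217617-7217766, minus strand: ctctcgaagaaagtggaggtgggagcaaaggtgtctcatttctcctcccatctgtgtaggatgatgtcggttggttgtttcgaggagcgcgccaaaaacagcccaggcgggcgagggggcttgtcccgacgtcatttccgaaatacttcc

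In the stretch of Cox6a1 the capitals mark the NRF1 core and, on the other strand, the ETS-factor motif, and in that of Cox8b an E-box of the type bound by muscle regulators. The window of Cox7a2 lies inside the annotated gene span (79755241 to 79771422), at an internal start. Over the promoter window of 250 bases before to 50 after the start, 51 of the 65 members had a sequence, and both strands were searched. The NRF1 core (GCGCANGCG), named for a factor known to act on respiratory genes, was in 13 of 51 members (25.5%), in 8.83% of all 17492 coding promoters and in 13.6% of those of the genes tested. The ETS motif (CCGGAAG) was in 11 members (21.6%) against 11.9% and 17.6%, the YY1 motif (AANATGGCG) in 6 (11.8%), all of complex I, against 3.30% and 5.06%, and the ERR-type site (AAGGTCA) in 4 (7.84%) against 4.08% and 3.10%. The E-box (CAGCTG) was in 5 members (9.80%) against 15.1% of all and of tested genes alike, and a TATA box (TATAAA) in 5 (9.80%) against 13.3% and 7.08%, with Cox8b among both. The TATA match of Cox8b and an ETS match of Cox8a do not lie fully within the stretches shown. These matches describe letters in the window and were not tied to any value above.

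Cox8b and its counterpart showed the largest difference of the isoform pairs. Cox8b (chromosome 7, 140898942 to 140900446) stood at 14.1, 9.88, 8.86 and 24.1 CPM on soft and 21.5, 16.2, 16.3 and 15.4 CPM on stiff, and Cox8a (chromosome 19, 7215158 to 7217616) at 105, 99.7, 114 and 153 CPM on soft and 117, 85.4, 135 and 82.2 CPM on stiff. For every 100 counts of Cox8a there were 13.4, 9.94, 7.78 and 15.7 counts of Cox8b in soft 1 to soft 4 and 18.4, 19.0, 12.1 and 18.8 in stiff 1 to stiff 4, a ratio of counts and not of molecules. Stiff 1, stiff 2 and stiff 4 lay above all soft libraries, and stiff 3 below soft 1 and soft 4. The log2 ratio was higher on stiff by 0.57 (-3.15 ± 0.45 on soft, -2.57 ± 0.31 on stiff), with a two-sided exact permutation p = 0.0857, or 0.429 after adjustment over the 5 ratios compared. The smallest p that 4 against 4 libraries allow is 0.0286. Leaving out each library in turn gave differences from 0.39 to 0.73.

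Cox7a1 (chromosome 7, 30184171 to 30186030) stood at 26.7, 24.2, 25.01 and 37.7 CPM on soft and 41.1, 34.7, 34.8 and 19.5 CPM on stiff. Stiff 4 was its lowest library, and stiff 1 its highest. Per 100 counts of Cox7a2 there were 13.0, 15.8, 13.0 and 18.0 counts in soft 1 to soft 4 and 21.7, 15.1, 18.9 and 12.2 in stiff 1 to stiff 4. The groups overlapped, and the log2 ratio differed by 0.16 (exact permutation p = 0.543, adjusted 0.857), or by 0.03 without stiff 1 and 0.31 without stiff 4. Cox7a2 itself was at 206, 153, 193 and 209 CPM on soft and 189, 230, 184 and 160 CPM on stiff. Soft 2 and stiff 4 were its lowest libraries, and it had a log2 fold change of 0.00 with an SE of 0.17.

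Cox6a2 (chromosome 7, 128205435 to 128206366, overlapping the span of Itgad) stood at 7.57, 7.35, 5.44 and 23.3 CPM on soft and 8.21, 7.45, 12.2 and 8.29 CPM on stiff. Soft 4 was 2.89 times the mean of the other libraries, the largest such ratio of any member. Per 100 counts of Cox6a1 there were 10.1, 12.2, 7.16 and 19.98 counts in soft 1 to soft 4 and 9.54, 12.8, 13.9 and 14.2 in stiff 1 to stiff 4. Soft 4 was again the highest and soft 3 the lowest, and the log2 ratio differed by 0.11 (exact permutation p = 0.800, adjusted 0.857). Cox6a1 (chromosome 5, 115345652 to 115348958) was at 75.0, 60.3, 76.5 and 117 CPM on soft and 86.4, 58.3, 87.9 and 58.8 CPM on stiff. Its groups overlapped, with soft 4 the highest library, and the log2 fold change was -0.17 (SE 0.22).

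Neither of the other isoform pairs differed beyond the spread. Cox4i2, the form of subunit 4 known from lung and low oxygen, stood at 17.1, 29.1, 30.0 and 24.2 CPM on soft and 29.8, 33.4, 18.0 and 11.1 CPM on stiff. The log2 ratio of Cox4i2 to Cox4i1 differed by -0.07 (exact permutation p = 0.857, adjusted 0.857), and that of Ndufa4l2 to Ndufa4 by 0.14 (exact permutation p = 0.771, adjusted 0.857). In both ratios the libraries of each substrate covered nearly the same range.

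**Figure D4:**
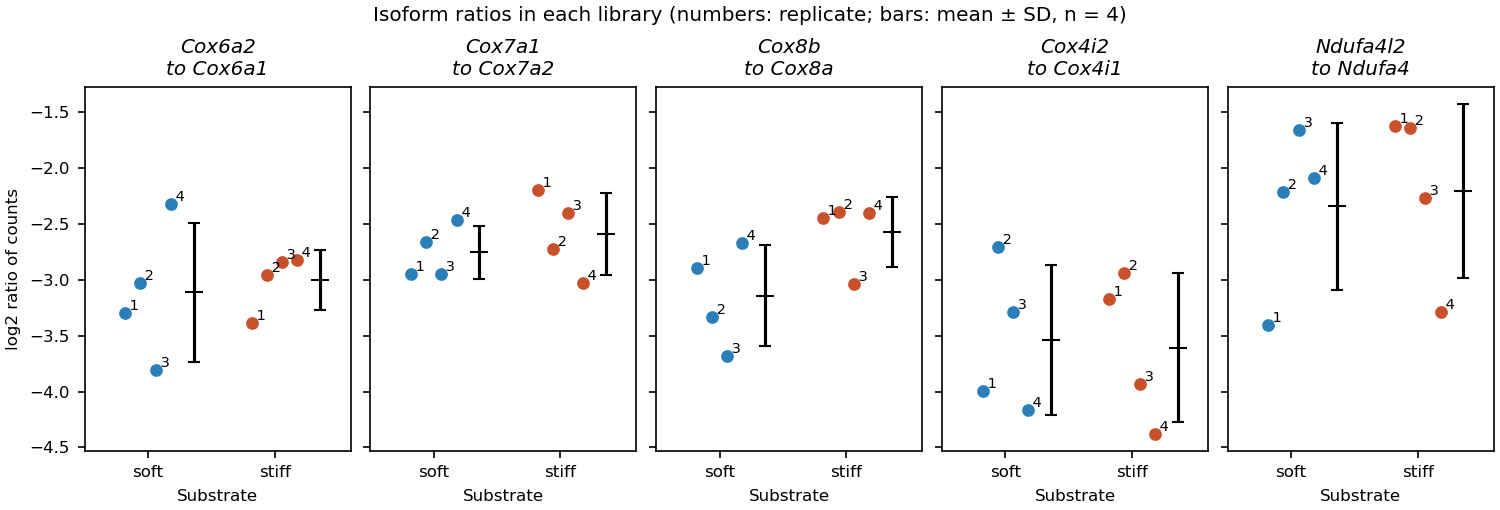
log2 ratio of counts for 5 isoform pairs in each library (points, numbered by replicate), with mean ± SD beside them (n = 4). Only in the panel of Cox8b to Cox8a do 3 of 4 stiff libraries lie above all soft ones, and the groups overlap in every panel.

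Since the muscle forms are expressed in cardiomyocytes, their ratios were set beside the log2 sum of the cardiomyocyte markers over the 8 libraries. For Cox6a2 to Cox6a1, Pearson's r was 0.69 (exact permutation p = 0.0650, adjusted over 3 relations 0.195) and Spearman's rho 0.50 (exact permutation p = 0.216). Without soft 4 and stiff 4, the libraries farthest from the median of the markers, r was -0.05, so the relation rested on them. For Cox8b to Cox8a, r was 0.46 (exact permutation p = 0.253, adjusted 0.380) and rho 0.21 (exact permutation p = 0.619), and r was 0.36 without those libraries. For Cox7a1 to Cox7a2, r was 0.11 (exact permutation p = 0.792, adjusted 0.792) and rho 0.17 (exact permutation p = 0.703), and r was 0.73 without them.

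What the members shared most visibly was their level in soft 4. Soft 4 was the highest of the 8 libraries for 40 of 65 members (61.5%), and for 2743 of all genes tested (19.5%). This held for 20 of 34 members of complex I, all 4 of complex II, 6 of 8 of complex III and 10 of 19 of complex IV. The level in soft 4 over the mean of the other 7 libraries had a median of 1.32 over the members and 0.98 over all genes, and was above 2 for 9 members (13.8%) against 5.71% of all genes. Those were Cox6a2 (2.89), Uqcrq (2.57), Ndufa11 (2.46), Ndufb7 (2.37), Uqcr11 (2.30), Ndufs8 (2.21), Ndufa12 (2.16), Uqcrc1 (2.06) and Ndufv1 (2.01), named after their values were seen. The cardiomyocyte markers had a median of 1.93 by the same measure (0.54 to 2.74), the fibroblast markers 1.36 and the ATP synthase genes 1.31. In stiff 4, with the next highest markers, the members summed to 5723 CPM, against 6046 to 6138 CPM in the other stiff libraries. For complex II, stiff 4 was at 770 CPM and the other stiff libraries at 698 to 785 CPM. The part of the cardiomyocyte share in the members' level in soft 4 was not tested. Soft 2, in turn, was the lowest library for 28 members (43.1%) against 14.7% of all genes.

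**Figure D5:**
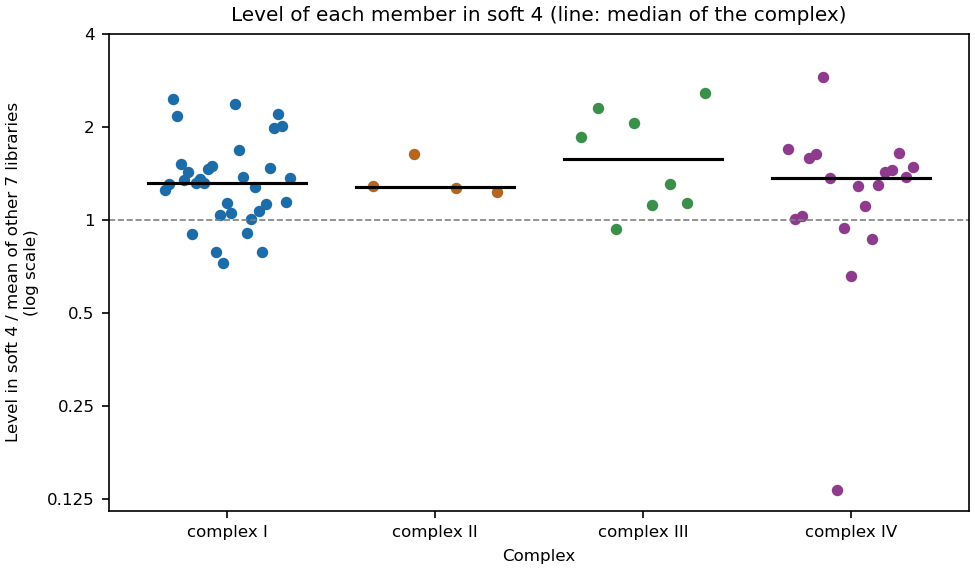
Each point is a member's level in soft 4 divided by the mean of the other 7 libraries (log axis), by complex, with the median of the complex as a black line and equality as a dashed line. Medians lie above 1 in every complex, and the low point in complex IV is Cox6b2 at 0.13.

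The spread was wider on soft for most members, with a larger SD on soft in 45 of 65 (69.2%) against 51.0% of all genes. The SD on soft includes soft 4, and the spread without that library is not given here. In complex IV the SD was larger on soft for 12 of 19 members. The SD of that complex's mean log2 level was 0.15 on soft and 0.28 on stiff. The median coefficient of variation over the 8 libraries was 21.4% over the members and 27.0% over all genes. As a description over 8 libraries that share soft 4, the median Pearson r between log2 levels of a pair of members was 0.31 within a complex (766 pairs) and 0.34 between complexes (1314 pairs). On this measure, members of 1 complex were no more alike than members of different complexes. Within complex II it was 0.64 over 6 pairs, and over all genes it was 0.00. Without soft 4 the values were 0.19 within and 0.13 between complexes, and -0.07 within complex III.

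In each list of other genes of the pathway 0 were called, which followed from 0 calls over all 14059 genes tested. The list of 18 nuclear genes for ATP synthase, the enzyme that spends the proton gradient, holds its subunits and its inhibitor Atpif1. Of these, 3 estimates were above 0 and 15 below (median -0.06), and soft 4 was the highest library for 12. Atpif1, the inhibitor of the enzyme running in reverse, had the lowest p of that list, with soft libraries at 103 ± 7.13 CPM and stiff libraries at 87.9 ± 11.97 CPM, followed by Atp5h, a subunit of its stalk, whose log2 fold change was -0.28 (SE 0.22). Of 43 assembly factors of complexes I to IV, 24 were above 0 and 19 below (median 0.02). Sdhaf1, which helps to insert the iron-sulfur clusters of Sdhb, averaged 6.38 ± 0.13 CPM in soft and 9.67 ± 1.91 CPM in stiff libraries. Its log2 fold change was 0.60 (SE 0.35; edgeR unadjusted p = 0.108, adjusted p = 0.99997). Its groups did not overlap, which held for 1 of the 43 assembly factors and for 1.29% of all genes tested. Timmdc1, an assembly factor of complex I, had 0.39 (SE 0.22).

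Of 16 genes for electron carriers, ubiquinone synthesis and subunits outside the symbol rule, 6 were above 0 and 10 below (median -0.08), with Coq6 and Coq9, both of ubiquinone synthesis, at -0.38 (SE 0.26) and -0.26 (SE 0.21). The subunits that the symbol rule left out, Cyc1 of complex III and Ndufab1 of complex I, had -0.28 (SE 0.24) and -0.08 (SE 0.31). Of 16 regulators of mitochondrial biogenesis, 6 were above 0 and 10 below (median -0.03). Polrmt, the mitochondrial RNA polymerase, had the lowest p there, averaging 10.1 ± 4.39 CPM in soft and 5.46 ± 2.40 CPM in stiff libraries, a log2 fold change of -0.89 (SE 0.47; edgeR unadjusted p = 0.0740), and the nuclear receptor Esrrg had -0.27 (SE 0.22). Of 13 genes of the tricarboxylic acid cycle, 6 were above 0 and 7 below (median -0.01), soft 4 was the highest library for 10, and Dld, the shared dehydrogenase subunit that reoxidises lipoamide, had 0.26 (SE 0.17) and Idh3g, a regulatory subunit of isocitrate dehydrogenase, -0.18 (SE 0.19).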

How the data were processed

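The authors deposited a table of raw counts per coding gene, 1 column per library, for the 8 libraries; it was used as deposited. Per the submitters' processing notes the build was GRCm38 and the tools named were FastQC 0.11.2, Bowtie2, TopHat2 2.0.14, HTSeq 0.6.1, Cufflinks, DESeq2 and edgeR, with no role given; the strand setting is not given in the sources used here. Of the 65 members, 19 have a RefSeq span that overlaps another gene, so reads of overlapping genes may be shared.

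From the counts, genes were filtered with filterByExpr (minimum count 10, minimum total 15), leaving 14059, scaled by TMM and tested with the robust quasi-likelihood test of edgeR 4.0.16 in R 4.3.3, stiff against soft, with no covariate. The edgeR fit was also run on simulated counts, and the outcome is not reported here. Isoform ratios were log2 ratios of counts with 1 added to each, compared by exact permutation of the libraries. Alternatives used RLE and upper-quartile factors, other filters, DESeq2 1.42.0, limma-voom 3.58.1, same-numbered libraries as a block, and each library left out. The named genes were the isoform pairs, the core subunits, the members of highest and lowest mean CPM and the 3 of lowest p in each complex, any member with an unadjusted p under 0.05, and the 2 genes of lowest p in each pathway list. In complex I, 1 member enters all counts and sums but is not reported singly here or drawn in the plots of single members. The members and lists were chosen with earlier results of these data known. Positions and promoters came from RefSeq (GRCm38.p6), and symbols from a separate list of gene names matched by Ensembl gene ID. A second deposited table, of noncoding genes, was not used here.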

Additional observations from a re-analysis of the deposited data

Results flagged for a closer look

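Within each group of 4 libraries, the gap between the most extreme library and the next was set against the group's range, and 10 of 96 such groups (10.4%) exceeded the 95% critical value of Dixon's test, where chance gives about 1 in 20 for independent groups. These groups share the same 8 libraries, and sums and ratios hold genes also checked singly. The share flagged therefore cannot show an excess. Soft 4 stood apart in 5 of the 10 flagged groups. It held Sdhc at 176 CPM (126 to 130 in soft 1 to soft 3), Cox6a2 at 23.3 CPM (5.44 to 7.57), Cox5b at 31.4 CPM (16.5 to 18.1), the summed level of complex III at 1429 CPM (943 to 1024) and the cardiomyocyte markers at 41324 CPM (22248 to 23947). Soft 2 stood apart for Cox6c2, at 4.61 CPM against 1.85 to 2.14 CPM. Stiff 3 stood apart for Ndufv2, at 103 CPM against 123 to 126 CPM, for the summed level of complex I, at 2529 CPM against 2331 to 2355 CPM, and for the log2 ratio of Cox8b to Cox8a, at -3.04 against -2.45 to -2.39. Stiff 1 stood apart for Cox8b, at 21.5 CPM against 15.4 to 16.3 CPM. Their cause was not tested.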

How the results depend on the processing

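Over 771 recomputed values, 675 kept their direction and their side of the threshold, 95 changed sign without passing any test, and 1 moved: the count of genes called was 8 under limma-voom with the replicate block and 0 in every other fit. Members called stayed at 0 in every fit. The sign changes include 12 of the median of a complex, which ran from -0.13 to 0.097 for complex I, from -0.094 to 0.19 for complex II, from -0.23 to 0.027 for complex III and from -0.083 to 0.058 for complex IV when each library was left out, and was 0.093, 0.20, 0.056 and 0.097 without both libraries numbered 4. Of the 32 named members, 12 kept the sign of their log2 fold change in every fit and 20 did not. Without both libraries numbered 4 (chosen after seeing the data), the log2 fold change was 0.11 for Ndufv1, 0.34 for Ndufs8, -0.22 for Ndufb2, 0.25 for Sdhb, 0.048 for Uqcrc1, 0.089 for Cox4i1, 0.085 for Cox8a, 0.14 for Cox6a1, 0.46 for Cox6a2, 0.097 for Cox4i2, 0.013 for Ndufa4 and 0.43 for Ndufa4l2. For Ndufs8, Ndufb2, Sdhb and Ndufa4l2 it was 0.077, -0.031, 0.030 and 0.083 with the replicate block in edgeR, 0.088, -0.021, 0.039 and 0.094 with the block in DESeq2 and 0.079, -0.054, 0.026 and 0.064 with limma-voom. With the block in limma-voom it was 0.0081 for Sdhb and -0.0010 for Cox7a2, which was at -0.0012 with upper-quartile factors. Ndufa4l2 was at 0.013 with DESeq2, 0.013 with RLE factors, 0.0035 with no filter and 0.0011 with a minimum of 1 CPM in 4 libraries.

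Leaving out each library in turn moved the log2 fold change of Ndufv1 from -0.39 to 0.12, Ndufs8 from -0.40 to 0.34, Ndufs1 from -0.093 to 0.19, Ndufv2 from -0.080 to 0.097, Ndufb2 from -0.14 to 0.26, Sdhd from -0.031 to 0.16 and Sdhb from -0.16 to 0.24. Likewise it moved that of Uqcrc1 from -0.48 to 0.069, Uqcrfs1 from -0.061 to 0.15, Cox4i1 from -0.37 to 0.043, Cox6a1 from -0.29 to 0.052, Cox6a2 from -0.49 to 0.42, Cox4i2 from -0.35 to 0.11, Ndufa4 from -0.18 to 0.081 and Cox5b from -0.082 to 0.31, and that of Cox5a from -0.060 to 0.087, Cox6c2 from -0.077 to 0.48, Cox7a2 from -0.095 to 0.078 and Ndufa4l2 from -0.25 to 0.22. Without a change of sign, it ran from 0.29 to 0.50 for Ndufb3, -0.33 to -0.11 for Ndufb11, -0.32 to -0.10 for Ndufv3, -0.61 to -0.050 for Ndufs7, -0.31 to -0.093 for Ndufs3, -0.21 to -0.034 for Sdha, 0.023 to 0.22 for Sdhc, -0.69 to -0.13 for Uqcr11, -0.94 to -0.11 for Uqcrq, 0.032 to 0.21 for Uqcrc2, 0.12 to 0.67 for Cox8b, -0.32 to -0.014 for Cox8a and 0.061 to 0.37 for Cox7a1. Members with an unadjusted p under 0.05 were Ndufb3 and Cox8b without soft 4, these with Cox6b1 and Cox7a1 without both libraries numbered 4, Ndufa11, Uqcr11 and Uqcrc1 without soft 2, Uqcr11 without soft 1, and under the replicate block Uqcrq in edgeR, Ndufb3 in DESeq2 and both Uqcr11 and Uqcrq in limma-voom. Over all genes tested, the same threshold was met by 213 of 14307 without soft 4 and 245 of 14066 without both libraries numbered 4. It was met by 272 of 14405 without soft 2 and 166 of 14359 without soft 1. With the block it was met by 360 of 14059 in edgeR, 695 of 17351 in DESeq2 and 432 of 14059 in limma-voom. The difference in the log2 ratio ran from -0.12 to 0.38 for Cox6a2 to Cox6a1, from 0.035 to 0.31 for Cox7a1 to Cox7a2, from 0.39 to 0.73 for Cox8b to Cox8a, from -0.29 to 0.21 for Cox4i2 to Cox4i1 and from -0.22 to 0.50 for Ndufa4l2 to Ndufa4, and the correlation of the Cox7a1 ratio with cardiomyocyte markers from -0.16 to 0.45. The cause of these changes was not tested.

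The labels give no pairing. Same-numbered soft and stiff libraries deviated together at r = 0.10, 0.18, 0.13 and 0.31, but soft 1 correlated slightly better with stiff 2 (0.11), a hint from the data only. With the replicate block, edgeR and DESeq2 called 0 genes, with 360 and 695 at an unadjusted p under 0.05 against 130 and 322 without it, and the block changed no member's call. By number, the log2 ratio of Cox8b to Cox8a was higher on stiff in 4 of 4 pairs, with an exact paired permutation p of 0.125, the smallest that 4 pairs allow.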
